A study of Drosophila melanogaster with 2 samples.

Results

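Of 38 genes listed for the piRNA pathway and the germline of Drosophila melanogaster, 37 were found by symbol in the Ensembl annotation, and 17 of these carried a gfzf-GFP peak at a transcription start site. The genes were chosen by name from a list of gene functions, with earlier results of these data known, and no measured value enters the rule. They comprised 28 genes of the piRNA pathway and 9 genes of germ plasm, germ cell differentiation and germline sex. The listed symbol nos was not in the annotation and was left out of all counts. The background was the 13968 protein-coding genes, of which 4609 (33.0%) were bound by the same rule.

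The data come from chromatin immunoprecipitation followed by sequencing (ChIP-seq) with an antibody against GFP, in whole embryos that expressed gfzf fused to GFP at its C-terminus from a transgene. Males and females were pooled at an age of 0 to 24 h. There were 2 biological replicates in 1 group, so the design holds no contrast between conditions. The labels do not say what drives the transgene or whether each replicate was a separate collection of embryos. Whole embryos consist mostly of somatic cells, and a peak in the somatic cells cannot be told apart from a peak in the germ cells.

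PIWI-interacting RNAs (piRNAs) are small RNAs that guide PIWI-clade Argonaute proteins to transposon transcripts, mainly in the gonads. They are made from precursor RNAs at perinuclear nuage and on the outer membrane of mitochondria, and they direct both slicing of transcripts and chromatin silencing. Genes of germ plasm and germ cell fate act in the same lineage, and many of the products are loaded into the egg by the mother. The product of gfzf is nuclear and combines zinc fingers of the FLYWCH type with a domain like that of glutathione S-transferases. At many Drosophila promoters without a TATA box, start sites carry the element known as Motif 1 or the DNA replication-related element (DRE), for which the zinc finger proteins M1BP and DREF are known as binding proteins.

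The strongest peak of the group, at pum, and the peaks at 7 other genes lay at start sites with the core of Motif 1, spelled GGTCACAC and counted on both strands. These sequences of 7 of the 8 genes with such a copy are shown because most copies sit at or beside the bound start. Each is 30 bases of the dm6 reference, 5′ to 3′ on the strand named, and the capitals mark the Motif 1 core.
pum (chr3R:9237681-9237710, minus strand): ggtcgagctgcGGTCACACtaaatgttcgc
vret (chr3R:22745565-22745594, minus strand): gcatagaaaacGGTCACACtcgcacgcgct
vret, second copy, on the strand of its neighbour HP1c (chr3R:22745630-22745659, plus strand): agtcagcaaacGGTCACACtggcactagtg
papi (chr2L:2220735-2220764, plus strand): gaactgataacGGTCACACcgcttcgcacg
armi (chr3L:3461310-3461339, plus strand): ccgctaagtccGGTCACACttaaaagttcg
zuc (chr2L:11989911-11989940, plus strand): tagtagctaccGGTCACACtgttgctcagt
piwi (chr2L:10987404-10987433, minus strand): tctggccatttGGTCACACtgagtccaaag
del (chr2L:21148398-21148427, minus strand): cccgacctcacGGTCACACtggtatgaact

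The DRE, searched on both strands as AATCGATA, AATCGATT, TATCGATA and TATCGATT, was shared by bound and unbound genes of the group. These 30-base stretches of dm6 show this, with the DRE in capitals. The first pair comes from bound genes and the next 5 from genes without a peak in the authors' final set.
fs(1)Yb, bound (chrX:2720362-2720391, plus strand): ggttcgatgatTATCGATAttgagtagtaa
arx, bound (chr3L:18901610-18901639, minus strand): ttgactgcgctTATCGATAggctaagaaaa
spn-E, not bound (chr3R:15837346-15837375, plus strand): gataatggcacTATCGATAtaaattcgcac
qin, not bound (chr3R:18590925-18590954, plus strand): tggagcaatctTATCGATActgtcatcgaa
BoYb, not bound (chr3L:22901899-22901928, plus strand): gaacaaactctTATCGATAaattatcgaat
mael, not bound (chr3L:22724182-22724211, plus strand): ttccattccagAATCGATAgttctggaatg
bam, not bound (chr3R:25245125-25245154, minus strand): actcgacatgaTATCGATAcgttaacaaca

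Longer stretches are shown for 3 genes that cover the range of the group, each being the 100 bases of dm6 just upstream of a start site, 5′ to 3′ on the strand of the gene. The gene pum had the strongest peak, whereas bam and vas had none. Capitals mark the Motif 1 core in pum, the DRE in bam and a match to the TATA box in vas, searched as TATAAAAA, TATAAAAG, TATATAAA and TATATAAG.
pum (chr3R:9237683-9237782, minus strand): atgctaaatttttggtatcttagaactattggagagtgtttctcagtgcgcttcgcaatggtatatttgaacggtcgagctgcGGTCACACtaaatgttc
bam (chr3R:25245110-25245209, minus strand): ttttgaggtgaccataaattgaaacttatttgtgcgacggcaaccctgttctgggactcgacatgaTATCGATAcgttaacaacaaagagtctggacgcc
vas (chr2L:15061556-15061655, plus strand): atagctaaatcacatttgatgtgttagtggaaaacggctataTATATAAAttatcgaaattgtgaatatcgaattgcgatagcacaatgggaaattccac

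A gene was called bound when a summit of the authors' final peak set, the set that passed their irreproducible discovery rate (IDR) filter, lay within 250 bp of any of its start sites. That set held 5007 peaks, which were the 5007 strongest of a relaxed list of 30000 peaks called on both replicates pooled. Signal is the authors' peak score, whose scale is not stated, so signals are compared only within a list and ranks count from the strongest peak. The weakest peak of the final set had a signal of 88.4. Sequencing depth is unknown, and the intervals given are exact Clopper-Pearson 95% intervals over genes treated as independent.

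By this rule 17 of 37 genes (45.9%, interval 29.5 to 63.1) were bound, beside 33.0% of all protein-coding genes, and the interval includes the background share. Another 10 of 37 (27.0%) had a summit only in the relaxed list, below the IDR threshold, beside 18.6% of all protein-coding genes. The last 10 genes (27.0%, interval 13.8 to 44.1) had no summit within 250 bp in either list, beside 48.4% of all protein-coding genes. A summit in the relaxed list was thus found for 27 of 37 (73.0%, interval 55.9 to 86.2), beside 51.6%. The last 2 shares are complements of each other and thus a single result. Neither interval includes its background share, and no test was made. Bound genes made up 14 of 28 in the piRNA pathway and 3 of 9 (33.3%) among the germline genes.

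The bound genes ran from weak peaks of the final set to strong ones. Their signal ran from 103 to 3067 with a median of 675, and the median over all bound protein-coding genes was 724, with a highest value of 15685. The median rank was 1981, beside 1937 for all bound genes, and the lower quartile of the rank was 906, beside 904. The group was thus close to all bound genes in this part of the list as well. At the strongest 1000 peaks lay 5 of 17 genes. Those 5 genes were pum, vret, squ, Hen1 and papi.

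**Figure D1:**
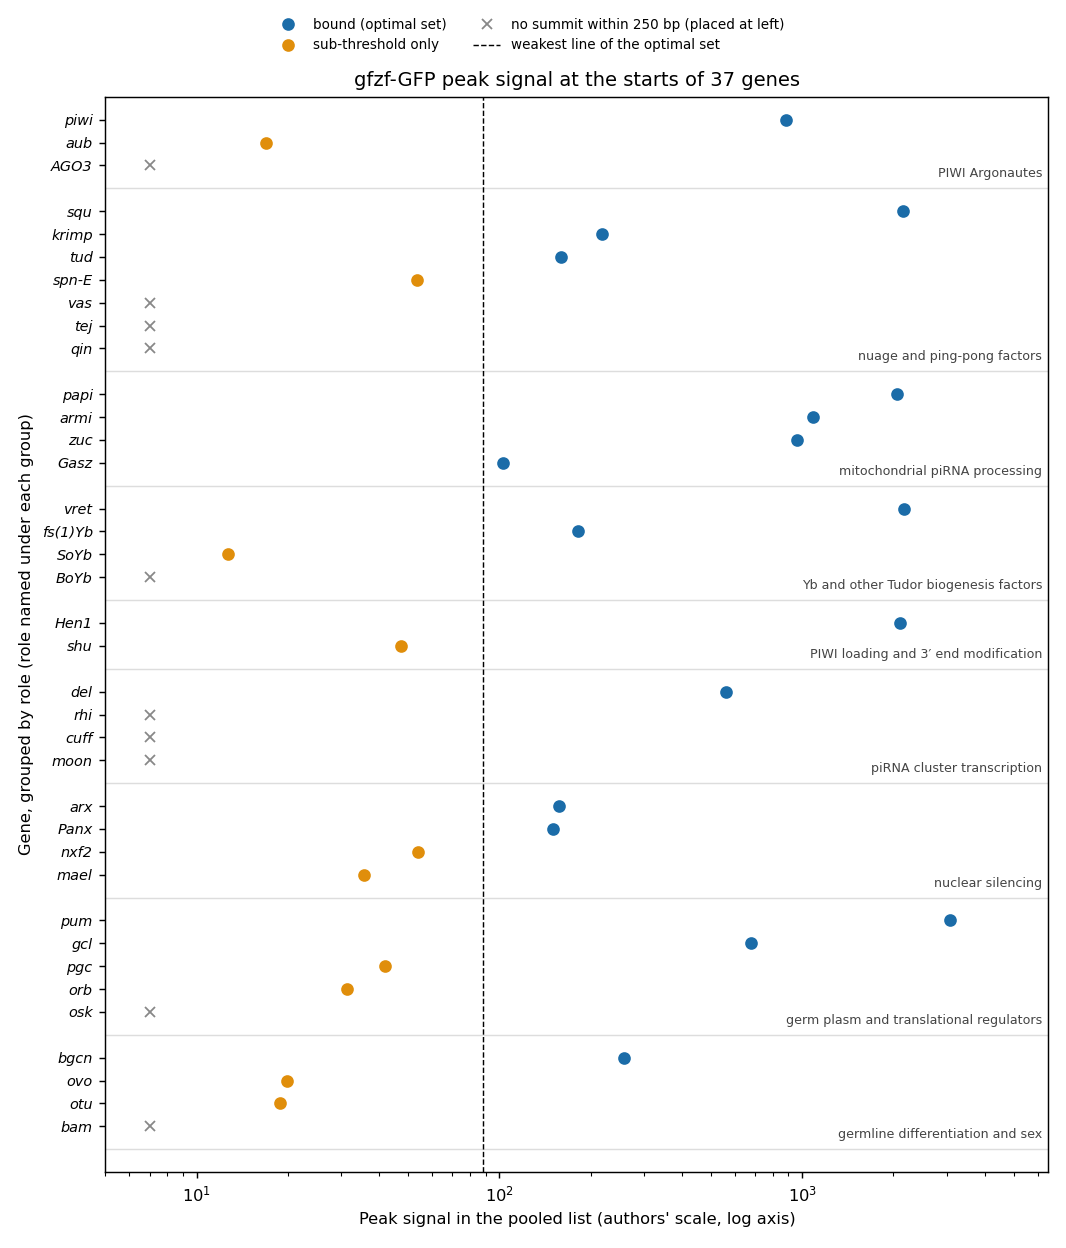
Peak signal in the pooled list (log axis, authors' scale) for 37 genes, grouped by role; blue points are bound, orange points have a sub-threshold summit only, crosses have no summit within 250 bp and carry no value. The dashed line marks the weakest peak of the final set, at 88.4. All 4 genes placed in the mitochondrial processing role lie to its right, from 103 to 2052.

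The proteins that carry piRNAs differed from one another. The gene piwi encodes the nuclear PIWI protein. It had a summit on chromosome arm 2L at 10987512, 92 bp upstream of its start, with a signal of 881 (rank 1757) in the pooled list. Replicate 2 listed a summit there with a signal of 286 (rank 1917), whereas replicate 1 listed none within 100 bp. The same peak interval, from 10987172 to 10988231, held a stronger summit at 10987765, with a signal of 1040 in the pooled list, 703 in replicate 1 and 337 in replicate 2. That summit lay 41 bp upstream of the neighbour CG12253 and 345 bp from the start of piwi, so the call for piwi rests on the weaker summit and on replicate 2. The gene aub, which encodes the cytoplasmic slicer of the ping-pong cycle, had only a sub-threshold summit. Its signal was 17.02 in the pooled list and 10.5 in replicate 1, and replicate 2 listed none. AGO3, which encodes the other ping-pong slicer, had no summit in either list, and the nearest peak of the final set was 216434 bp away.

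Among 7 nuage and ping-pong factors, 3 were bound. The gene squ encodes a small nuage protein and had a signal of 2155 (rank 848), with 1440 in replicate 1 and 710 in replicate 2. Its summit lay at 16680493 on 2L, 77 bp upstream of an internal start of squ at 16680570 and 439 bp from the start that grp and squ share at 16680054. The gene krimp encodes a Tudor-domain protein that brings Aubergine and AGO3 together, and its signal was 219 in the pool, 128 in replicate 1 and 91.0 in replicate 2. Tudor itself, encoded by tud, binds methylated Aubergine in germ plasm. At tud the signal was 160 in the pool, 96.5 in replicate 1 and 63.6 in replicate 2. The peaks at krimp and tud thus ranked 3112 and 3611, far below squ.

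The other nuage genes were not bound. The helicase gene spn-E had a sub-threshold summit 59 bp upstream of its start, with a signal of 53.6 in the pool, 37.7 in replicate 1 and 8.47 in replicate 2. The Tudor-domain gene tej and qin, which encodes a protein with Tudor domains and a RING finger, had no summit within 250 bp. For tej the nearest peak of the final set was 483 bp away with a signal of 266, and for qin it was 6793 bp away.

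The DEAD-box helicase gene vas is a classic germline marker, and its start at 15061656 on 2L lay beside 1 of the strongest peaks of the genome. That peak had a signal of 7116 (rank 51), with 4383 in replicate 1 and 2755 in replicate 2. Its summit lay 24 bp upstream of TfIIS, the gene of a transcription elongation factor, and 875 bp from the start of vas. No summit of either list lay within 250 bp of vas.

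All 4 genes of mitochondrial piRNA processing were bound, with an interval down to 39.8%, beside 33.0% of all protein-coding genes. This was the highest share among 9 roles, each of few genes, and no test was made of it. It also depends on how genes were assigned to roles. The genes mino and daed, whose products also act in piRNA processing at mitochondria, were placed among the further genes below. Both had only sub-threshold summits, with 67.3 and 36.8 in the pool. The RNA-binding Tudor protein of the mitochondrial surface is encoded by papi, which had the strongest signal of the 4, at 2052 (rank 906), with 1318 in replicate 1 and 733 in replicate 2. Its bound start, at 2220748 on 2L, lay at −1341 bp relative to the start of the Ensembl canonical transcript. The helicase gene armi had a signal of 1085 in the pool, 663 in replicate 1 and 441 in replicate 2. The peak interval of armi held 3 summits, and the other 2 lay at eIF5B with signals of 884 and 273. Zucchini, the endonuclease that cuts piRNA precursors, is encoded by zuc, with a signal of 958 in the pool, 604 in replicate 1 and 345 in replicate 2. The scaffold gene Gasz was the weakest bound gene of the group, with 103 in the pool, 71.4 in replicate 1 and 32.8 in replicate 2. Its summit lay in its own 5′ UTR, 50 bp downstream of the start.

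Of 4 Yb and related Tudor biogenesis genes, 2 were bound. The peak at vret was the second strongest of the group, with 2165 in the pool (rank 843), 1295 in replicate 1 and 871 in replicate 2. The gene fs(1)Yb encodes the core protein of the Yb bodies of ovarian somatic cells. It had a signal of 181 in the pool, 108 in replicate 1 and 71.6 in replicate 2, with the summit 155 bp upstream of its start. Both related genes were unbound. SoYb had a summit of signal 12.7, close to the end of the relaxed list at rank 29986, and BoYb had none.

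Loading and end modification gave 1 bound gene of 2. Hen1 encodes the methyltransferase that modifies the 3′ end of piRNAs, and its signal was 2107 in the pool (rank 871), 1271 in replicate 1 and 843 in replicate 2. The co-chaperone gene shu, which acts in PIWI loading, had a sub-threshold summit 7 bp from its start with 47.5 in the pool, 20.2 in replicate 1 and 28.7 in replicate 2.

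Transcription of dual-strand piRNA clusters depends on rhi, del, cuff and moon, and only del was bound. Deadlock, its product, links Rhino to the transcription machinery. The signal at del was 559 in the pool (rank 2114), 380 in replicate 1 and 181 in replicate 2. Its summit lay in the 5′ UTR, 44 bp upstream of the start at 21148417 on 2L, and the canonical start at 21148546 was also within 250 bp. No summit of either list lay within 250 bp of rhi, which encodes an HP1 paralogue, of cuff, which encodes a protein that protects cluster transcripts, or of moon, which encodes a paralogue of a TFIIA subunit. The nearest peak of the final set was 397 bp from cuff, at CG13185 with a signal of 151. It was 32135 bp away for rhi and 54875 bp away for moon.

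Of 4 nuclear silencing genes 2 were bound, both with low signal. Panoramix, encoded by Panx, links Piwi to chromatin silencing. The signal at Panx was 150 in the pool, 84.9 in replicate 1 and 69.0 in replicate 2. The zinc finger gene arx (asterix), whose product is a partner of Piwi, had 158 in the pool, 90.4 in replicate 1 and 69.0 in replicate 2. Both lay in the lower part of the final set, at ranks 3755 and 3635. The gene nxf2, whose product acts in a complex with Panoramix, had 54.0 in the pool, 22.5 in replicate 1 and 27.0 in replicate 2 and was the strongest of the sub-threshold genes. At mael, which encodes an HMG-box protein, the signal was 35.9 in the pool and 34.1 in replicate 1, and replicate 2 listed no summit. The summit of mael lay at a start at −3030 bp relative to the canonical one, and the DRE shown above lies at the canonical start.

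Germ plasm and translational regulators included the strongest peak of all 37 genes. The gene pum encodes Pumilio, an RNA-binding repressor of translation that also acts in the soma. It had a signal of 3067 in the pool (rank 495), 1942 in replicate 1 (rank 478) and 1137 in replicate 2 (rank 539). The peak ran from 9237269 to 9238164 on 3R, and the bound start at 9237682 lay at −657 bp relative to the canonical one. The gene gcl, needed for germ cell formation, had a signal of 675 in the pool, 375 in replicate 1 and 304 in replicate 2. A stronger summit of 1592 in the same interval lay 18 bp upstream of the neighbour CG14767. The other 3 genes were unbound. The gene pgc encodes a repressor of transcription elongation in pole cells and had 41.8 in the pool and 16.1 in replicate 2. Its summit lay at a start 1971 bp downstream of the canonical one. The translational regulator gene orb had 31.5 in the pool and 15.2 in replicate 2. No summit was listed near osk, the organiser of germ plasm, and the nearest peak of the final set was 3001 bp away.

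Of 4 genes of germline differentiation and sex, bgcn alone was bound. Its product acts with Bam in germline stem cell differentiation. The signal at bgcn was 257 in the pool, 158 in replicate 1 and 98.5 in replicate 2, with the summit in its 5′ UTR, 106 bp downstream of the start. Its partner gene bam had no summit within 250 bp, and the nearest peak of the final set was 481 bp away with a signal of 241. The zinc finger gene ovo had 19.9 in the pool, 11.2 in replicate 1 and 7.39 in replicate 2, at a start 15571 bp downstream of the canonical one. The gene otu, required for oogenesis, had 18.9 in the pool and 9.12 in replicate 2.

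Across the bound genes the replicates listed the same summits with 1 exception. For 16 of 17 genes both replicates held a summit within 100 bp of the pooled one, and piwi was the exception. Among sub-threshold genes 4 of 10 had a summit in both replicates, namely spn-E, shu, nxf2 and ovo. The order of the strongest genes was similar in the replicates: pum was first in both, and vret, squ, Hen1 and papi took the next places in a different order. These peaks were selected for their reproducibility by the IDR filter, so the similarity is conditioned on that choice.

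**Figure D2:**
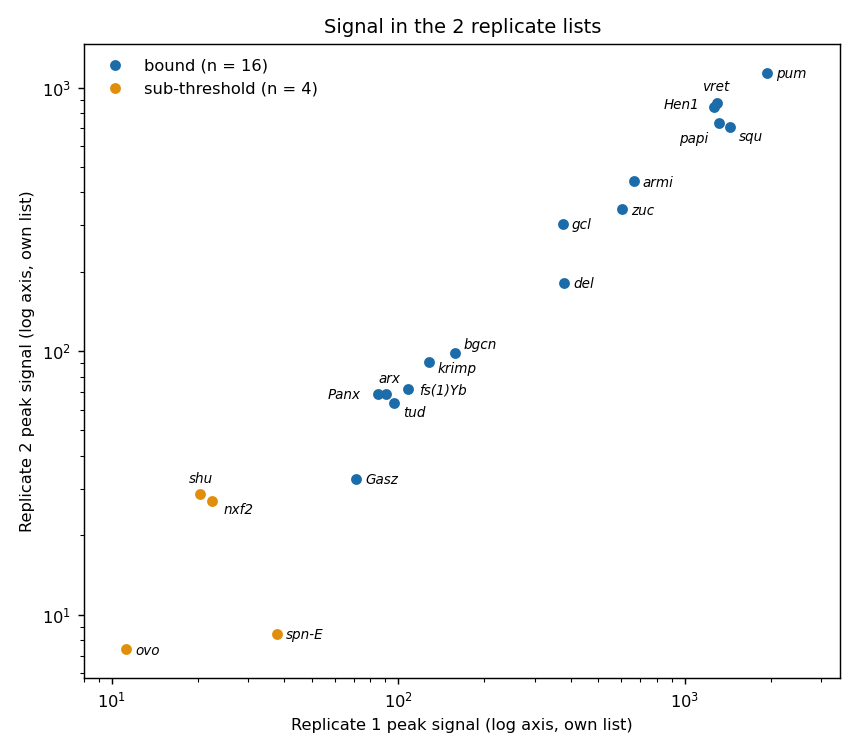
Signal in replicate 1 (x axis) against replicate 2 (y axis), each from its own list and on a log axis, for the 20 genes with a summit in both lists. The point for pum lies at 1942 and 1137, and Gasz is the lowest blue point, at 71.4 and 32.8.

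Sub-threshold signals covered much of the range of other such genes. The 10 genes had a median signal of 33.7 and a range of 12.7 to 54.0, and all 2595 sub-threshold protein-coding genes had a median of 33.2 and a range of 12.7 to 88.2. The gene nearest to the threshold of 88.4 was Gasz, the weakest bound gene, with 103 at rank 4601 of 5007, and its call was lost without replicate 1. The strongest sub-threshold gene, nxf2, had 54.0. Of the genes with any summit in the relaxed list, 17 of 27 (63.0%) were bound, beside 64.0% of all such protein-coding genes. The highest deposited −log10 q-value of the pooled list was 4.18, which spn-E, shu and nxf2 also reached, while SoYb had 0.325 and aub 0.544.

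Several bound starts were shared with a neighbour. For 6 of 17 genes (35.3%, interval 14.2 to 61.7) the summit also lay within 250 bp of the start of another gene, beside 43.8% of all bound protein-coding genes. In 5 of these the neighbour lay on the opposite strand. The start of zuc was 54 bp from that of dgt2, vret 39 bp from HP1c, arx 40 bp from CG6843, Panx 45 bp from CG9485 and fs(1)Yb 141 bp from CG2701. The sixth gene, armi, lay on the same strand as CG46463, with starts 2 bp apart. At zuc the summit was 56 bp upstream of zuc and 2 bp from the start of dgt2, and at fs(1)Yb it was 155 bp upstream and 14 bp from CG2701. Which of the paired genes such a peak belongs to cannot be told apart. The median signal was 570 for shared summits and 675 for the 11 others.

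Summits lay upstream of the start at 14 of 17 genes, the exceptions being Gasz, Panx and bgcn. The median offset was −37 bp, beside −48 bp for all bound genes, and the upper quartile was −22 bp, beside −21 bp. Most bound protein-coding genes thus also had the summit upstream. For 10 of 17 genes the summit fell outside protein-coding genes, and the share of all bound genes was not counted. By chromosome arm, 5 of 8 genes were bound on 2L, 7 of 12 on 2R, 2 of 6 on 3L, 2 of 7 on 3R and 1 of 4 on X, and 29.9% to 35.6% of all genes were bound on these arms.

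Within 100 bp of the summit, 8 of 17 bound genes (47.1%, interval 23.0 to 72.2) had the Motif 1 core, beside 22.3% of all bound protein-coding genes. This is 1 of 8 motifs searched, and no test was made of the difference. The genes were piwi, zuc, armi, papi, vret, del, gcl and pum, 3 of them mitochondrial processing genes. The DRE was found near 5 of 17 summits (29.4%), beside 1153 of 4609 bound protein-coding genes, and these were Gasz, fs(1)Yb, Hen1, Panx and arx. Motif 7 was found at gcl only, beside 14.5%, and Motif 6 at none, beside 5.73%. The genes krimp, tud, squ and bgcn had none of these 4 motifs near the summit.

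Signals at the genes with the Motif 1 core were in the upper part of the group. They ran from 559 to 3067 with a median of 1022 over 8 genes. The 5 genes with a DRE and no Motif 1 core ran from 103 to 2107 with a median of 158, and 4 of the 5 lay below every gene with the core, the exception being Hen1. Among all bound protein-coding genes the medians were 1769 with the core, 250 with a DRE only and 534 with none of the 4 motifs.

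**Figure D3:**
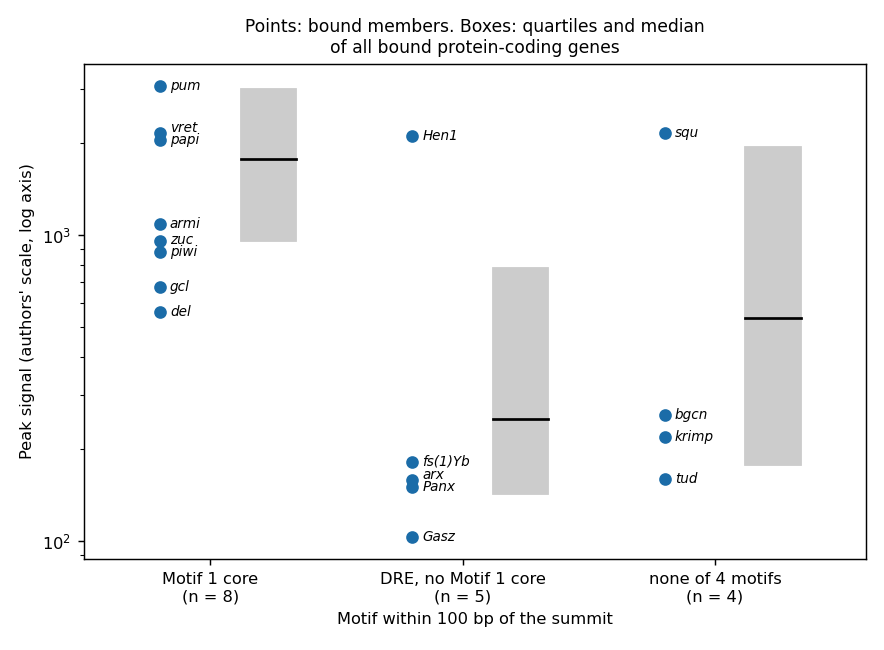
Peak signal (log axis) of the 17 bound genes by the motif within 100 bp of the summit; points are genes, grey boxes span the quartiles of all bound protein-coding genes of the class and black lines are their medians. Genes with the Motif 1 core lie between 559 and 3067, and 4 of 5 genes with a DRE only lie below 200, Hen1 being the exception.

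The Motif 1 core lay at or close to the bound start in most of these genes, a pattern that was chosen for description after the positions were seen. In 6 of 8 genes (piwi, armi, papi, vret, del and pum) a copy on the gene's own strand lay within 20 bp of the bound start, beside 419 of 1027 bound protein-coding genes (40.8%) with the core near the summit. In piwi, papi and vret the copy spanned the positions from −2 to 5 relative to the start. In pum it lay upstream, from −17 to −10. The copy at zuc was on the strand of dgt2, and the copy at gcl was on the opposite strand. The second copy at vret lay on the strand of HP1c.

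**Figure D4:**
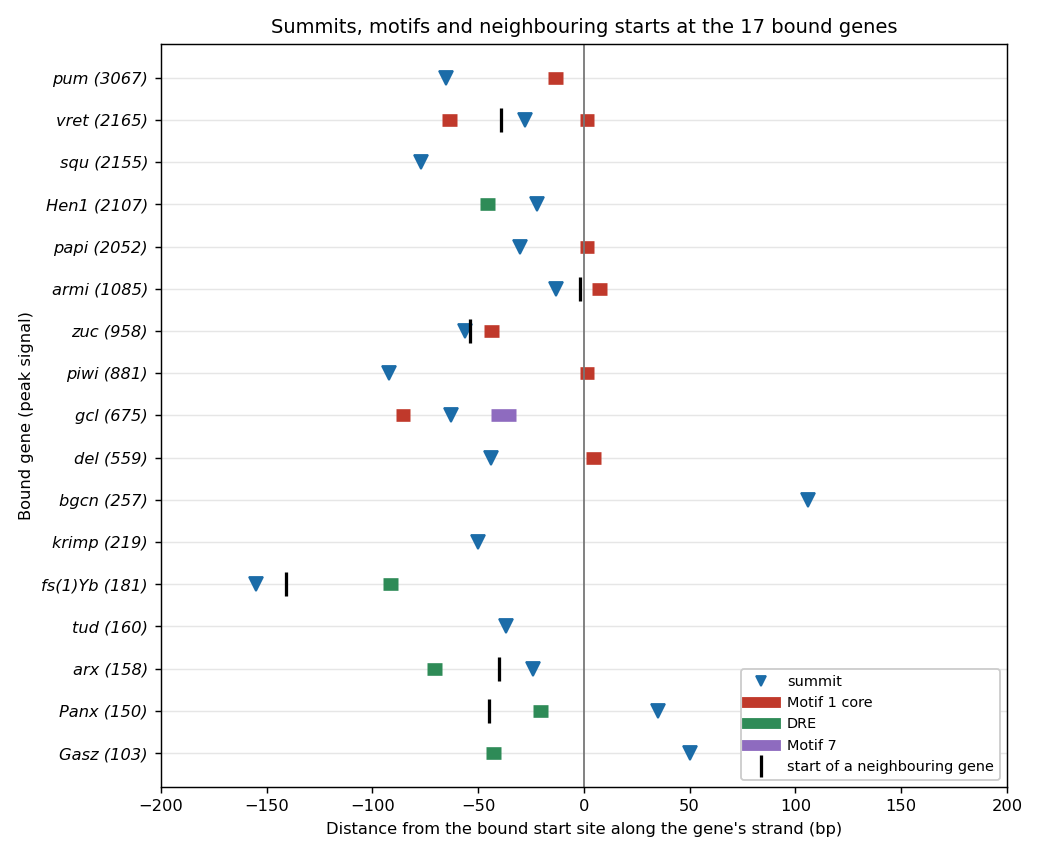
Position of the summit (triangles), the motifs (coloured blocks) and the starts of neighbouring genes (black ticks) relative to the bound start of each of the 17 bound genes, in bp along the gene's strand, ordered by signal in brackets. Red blocks of the Motif 1 core occur from pum (3067) down to del (559), and green blocks of the DRE occur below it and at Hen1 (2107).

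Core promoters were taken from −100 to 50 bp of the canonical start. The Motif 1 core was present in 5 of 17 bound genes and 0 of 20 unbound genes, which allows a share of up to 16.8% by the exact interval. The genes papi, del and pum had the core near the summit but not in this window, since their copy lay at a start other than the canonical one. Among all protein-coding genes the core was present in 18.4% of the bound and 0.481% of the unbound, and 94.9% of the genes that had it were bound. The DRE was present in 6 of 17 bound genes (35.3%) and in 7 of 20 unbound genes (35.0%), the latter being tej, spn-E, qin, BoYb, shu, mael and bam. Among all protein-coding genes the shares were 22.2% of the bound and 7.69% of the unbound. The 6 bound genes include squ, whose DRE lies at the canonical start, where no summit was within 250 bp. In all, 13 of 37 genes (35.1%, interval 20.2 to 52.5) had a DRE, beside 12.5% of all protein-coding genes. Of the genes with a DRE, 6 of 13 (46.2%, interval 19.2 to 74.9) were bound, beside 58.7% of all protein-coding genes with one.

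The promoter of rhi held both Motif 6 and Motif 7 and was unbound, whereas 190 of 209 protein-coding genes with Motif 6 (90.9%) were bound. For Motif 7 this was 588 of 964. Motif 7 was also found in this window in otu, which was unbound, and in gcl, which was bound. In the same window a match to the TATA box was found in vas and pgc, both unbound, and 15.8% of all genes with a match were bound. The match in vas was centred at −55 bp, and that in pgc at −66 bp on the opposite strand, so neither is shown to be a working TATA box. The count of genes with a match depended on the window: from −250 to 100 bp it was 12 of 37 genes, 5 of 17 bound and 7 of 20 unbound, beside 24.5% of all protein-coding genes. These matches are descriptions of the reference letters and not measured binding of any factor.

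A wider list covers other genes assigned to the pathway or the germline. Of 76 further genes, listed as partners of the pathway or as germline regulators, 54 (71.1%, interval 59.5 to 80.9) were bound, beside 33.0% of all protein-coding genes. Their median signal was 1051, beside 724 for all bound protein-coding genes. For 24 of the 54 (44.4%) the summit also lay within 250 bp of another gene's start, beside 43.8% of all bound genes. Many of these have general roles outside the germline. The list was chosen with earlier results of these data known, so its share does not describe the pathway as a whole. In cluster transcription and export 10 of 11 were bound, led by the RNA helicase gene Hel25E (3953), Trf2 (3000) and the THO subunit gene thoc7 (2644), and kipf was unbound. The summit of Hel25E was shared with Lam and that of thoc7 with Dis3l2. Among nuclear silencing partners 9 of 12 were bound, led by the histone demethylase gene Su(var)3-3 (3281), Su(var)2-10 (2420) and the SUMO-conjugating enzyme gene lwr (2089), and ova, Sumo and wde were unbound. Among genes listed as biogenesis partners 8 of 12 were bound, led by Dcr-2 (3177), the arginine methyltransferase gene csul (2859) and Fkbp59 (2409). The bound genes of this role include Dcr-2, r2d2 and AGO2, which belong to the small interfering RNA pathway and not to piRNA biogenesis. The genes daed, mino and Nbr were among the unbound. The summit of csul was shared with fidipidine. For germ plasm and oocyte RNA regulators the count was 16 of 22, led by the translational repressor gene smg (8283), egl (3368) and BicD (2992), with BicC, bru1 and capu among the unbound. The summit at smg lay 157 bp upstream of smg and 38 bp upstream of CG5087, and that at BicD was shared with Sgt. For germ cell development it was 11 of 19, led by Sxl (7549), bol (6109) and the germline gap junction gene zpg (3766), with can, Pvf2 and sa among the unbound. The summit at bol lay 137 bp upstream of bol and 18 bp upstream of Dhpr, and that at zpg lay 82 bp upstream of zpg and 65 bp upstream of Rexo5.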

How the data were processed

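Peaks were called by the authors for each replicate, for both replicates pooled and after an IDR filter. For the aligner, peak caller, IDR settings and depth, values were not given in the sources used here. Per the labels, chromatin was sonicated to 200 to 800 bp, and both replicates share 1 control entry. The deposited signal is column 7 of each dm6 list. The deposited −log10 q-value is column 9, and the summit is column 2 plus column 10, as deposited. The dm3 copies were not used.

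Start sites came from Ensembl release 115 on the same assembly, and sequence from the dm6 reference. Replicate summits were linked to pooled ones within 100 bp. Motifs were matched exactly on both strands. No hypothesis test was made, since there is 1 group. Python 3.11.15, numpy 2.4.6, scipy 1.17.1, pandas 2.3.3 and matplotlib 3.10.9 were used. The bound-gene rule and the motif search were tested on simulated data. Intervals cover neither read counting nor shared neighbouring starts.

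The members and lists were chosen with earlier results of these data known. All members found are named. Of 82 further genes listed, 76 were used, 7 of them matched by a RefSeq synonym. For each of their roles the text names the 3 bound genes of highest signal and the first 3 unbound genes in alphabetical order. Alternatives changed the start-site distance, the start sites used, the peak set, the replicate, the neighbour rule and the motif window.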

Additional observations from a re-analysis of the deposited data

How the results depend on the processing

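The count of 17 bound genes became 15 at a start-site distance of 100 bp, without fs(1)Yb and bgcn, 20 at 500 bp, with tej, cuff and bam, and 21 at 1000 bp, with vas as well. It was 14 with canonical starts only, without squ, papi and pum. With the strongest 2504 peaks it fell to 10, without krimp, tud, Gasz, fs(1)Yb, Panx, arx and bgcn, while the 76 further genes gave 35 bound and all protein-coding genes 2823. The share stayed above that of all protein-coding genes in each of these settings, from 27.0% beside 20.2% with the strongest peaks to 56.8% beside 39.3% at 1000 bp. The settings reuse the same genes and peaks, so they add no separate evidence of a difference. The interval of the main share (29.5 to 63.1) includes the background share of 33.0%. Leaving out either replicate gave 16, losing Gasz without replicate 1 and piwi without replicate 2, with 51 to 52 of the further genes. These losses differ: replicate 2 did list a summit at Gasz, at rank 5238, whereas replicate 1 listed none within 100 bp of the piwi summit. The number of bound genes sharing a summit rose from 6 to 10 when neighbouring starts within 500 bp counted. The share of all bound protein-coding genes was not counted at that distance. The count of sub-threshold genes ran from 8 to 10. With promoters from −250 to 100 bp, genes with a TATA box rose from 2 to 12 and those with an Initiator (TCA, then G or T, T, and C or T) from 17 to 26, while those with the Motif 1 core (5) or a DRE (13) kept their counts. At 500 bp the rank of gcl went from 1981 to 1173 and that of piwi from 1757 to 1592, through the stronger summits of their neighbours. No paired analysis was possible because there is only 1 group. Unknown depth limits what the absence of a summit shows: a weak peak may lie below what these lists could hold.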

Other observations

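The translational repressor gene nanos, whose usual short symbol was not in the annotation, was kept out of all counts. It starts at 19157238 on 3R and was not bound. The nearest peak of the final set had a signal of 241 (rank 2979) and lay 361 bp from this start and 65 bp upstream of CG11779. A DRE was present in the core promoter of nanos.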
